A study of Mus musculus with 4 samples.

Results

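Integrin chains and laminin chains make up the receptors by which cells hold on to the extracellular matrix and a main ligand of those receptors. The genes were chosen by symbol alone, as every probe set (a group of short probes against 1 transcript) whose single deposited gene symbol reads Itga, Itgb, Lama, Lamb or Lamc followed by the number or letter of the chain. The choice gave 33 genes with 66 probe sets, out of 20461 genes with 36804 single-symbol probe sets and 45101 probe sets in all. Of these, 23 genes with 49 probe sets encode integrins (16 alpha chains and 7 beta chains) and 10 genes with 17 probe sets encode laminins. The laminin beta1 gene carries the older symbol Lamb1-1 in the deposited annotation. It is described below beside Lamc1 and counted with the basement membrane genes, while Itga11, Itgad and Itgb8 were not analysed here.

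The smDicer KO mice (smDicer-/-;Cre-GFP/+) carry Cre recombinase and eGFP under the promoter of the smooth muscle myosin heavy chain gene, Myh11, which deletes Dicer, the enzyme that cuts miRNA precursors, in smooth muscle cells. Other cells of the tissue would still express Dicer by the study's account. Its summary of mice gives the KO genotype as Dicer lox/Δ, with Δ a deleted allele, and lists Dicer lox/Δ without Cre as heterozygous null. By that genotype, cells without Cre carry 1 deleted allele as well, whereas the extended methods write Dicer lox/lox. RNA from the jejunal muscularis, freed of mucosa and submucosa, was hybridized to Affymetrix mouse arrays from 2 smDicer KO and 2 WT mice at 3 weeks of age, 1 array per mouse (KO 1, KO 2, WT 1 and WT 2). Mutant animals on the arrays were female per the study's methods, whereas the sources used here do not give the sex of the WT mice. For tissue work the methods name both smMHC Cre-GFP/+ and C57BL6 mice as controls, and which of these were on the arrays is not given in the sources used here.

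Each integrin is a pair of 1 alpha and 1 beta chain that spans the plasma membrane, binds matrix outside the cell and couples through talin and other adaptors to actin inside it. Each laminin is a cross-shaped trimer of an alpha, a beta and a gamma chain that assembles into the sheet of the basement membrane around smooth muscle cells, nerves and vessels and beneath epithelia. In visceral smooth muscle, integrins are gathered at dense plaques on the cell surface, where contractile force is passed to the matrix.

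The values were RMA log2 values, which are comparable between arrays for 1 probe set but not between probe sets, and a value under about 6 lies near background. The array medians were 5.22 on both smDicer KO arrays, against 5.18 and 5.17 on the WT arrays. Pearson's r across probe sets was 0.973 between the smDicer KO arrays and 0.992 between the WT arrays. Across genotypes, r was 0.979 for KO 1 with each WT array, and 0.953 and 0.960 for KO 2 with WT 1 and WT 2. By this measure KO 1 was closer to both WT arrays than to KO 2. Dicer1 itself measured 7.52 and 7.36 on the smDicer KO arrays, against 7.82 and 8.08 on the WT arrays (log2 fold change -0.51, SE 0.16, limma unadjusted p = 0.027, adjusted p = 0.271). Its probes need not lie in the deleted part of the gene, so the value is a limited check of the labels. Array KO 2 stood apart in its cell type markers: the median of 27 mucosal epithelial markers was 9.24 on KO 1 and 11.78 on KO 2, against 5.66 on WT 1 and 7.12 on WT 2, all 27 were higher in smDicer KO, and 11 pancreatic acinar markers had medians of 4.74 and 11.64 on KO 1 and KO 2, against 4.93 and 8.34 on WT 1 and WT 2. Of 12 smooth muscle markers, 11 had a lower mean in smDicer KO (medians 13.20 and 12.49 on the smDicer KO arrays, against 13.48 and 13.38 on the WT arrays). Over all genes, 44.4% had a higher mean in smDicer KO. In whole tissue, fewer cells of a type and less RNA per cell cannot be told apart.

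No integrin or laminin probe set passed an adjusted p of 0.05 in limma (0 of 66, and 0 of all 45101 probe sets; smallest adjusted p of a member 0.234), so genes are described below by their values and their unadjusted p. At an unadjusted p under 0.05, 13 of the 66 probe sets (19.7%) stood out, 7 higher and 6 lower in smDicer KO, where 15.8% of all probe sets did so (6.41% higher and 9.39% lower). Counted by gene, with the probe set of highest mean standing for each, it was 8 of 33 (24.2%), 6 higher in smDicer KO, among them Itga6, Itgb4, Itga8, Itgb2 and Itgal, and 2 lower, Itga9 and Itga2b, against a background of 17.7% of all genes (7.2% higher and 10.5% lower). Of the 33 genes, 21 had a mean of at least 6 in the higher genotype, and 6 of these 21 (28.6%) had such a p, where 26.6% of all genes at that level did (10.5% higher and 16% lower). The share among the integrin and laminin genes was therefore close to the background share. Without moderation of the variance the 13 became 4, all higher, where 10.1% of all probe sets passed. The count of 13 fell without KO 2, WT 1 or WT 2 and rose without KO 1. Over all probe sets the share fell without WT 1 or WT 2 and rose without KO 1 or KO 2. Each fit that leaves out an array assumes that the lone array of that genotype varies like the other pair.

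**Figure D1:**
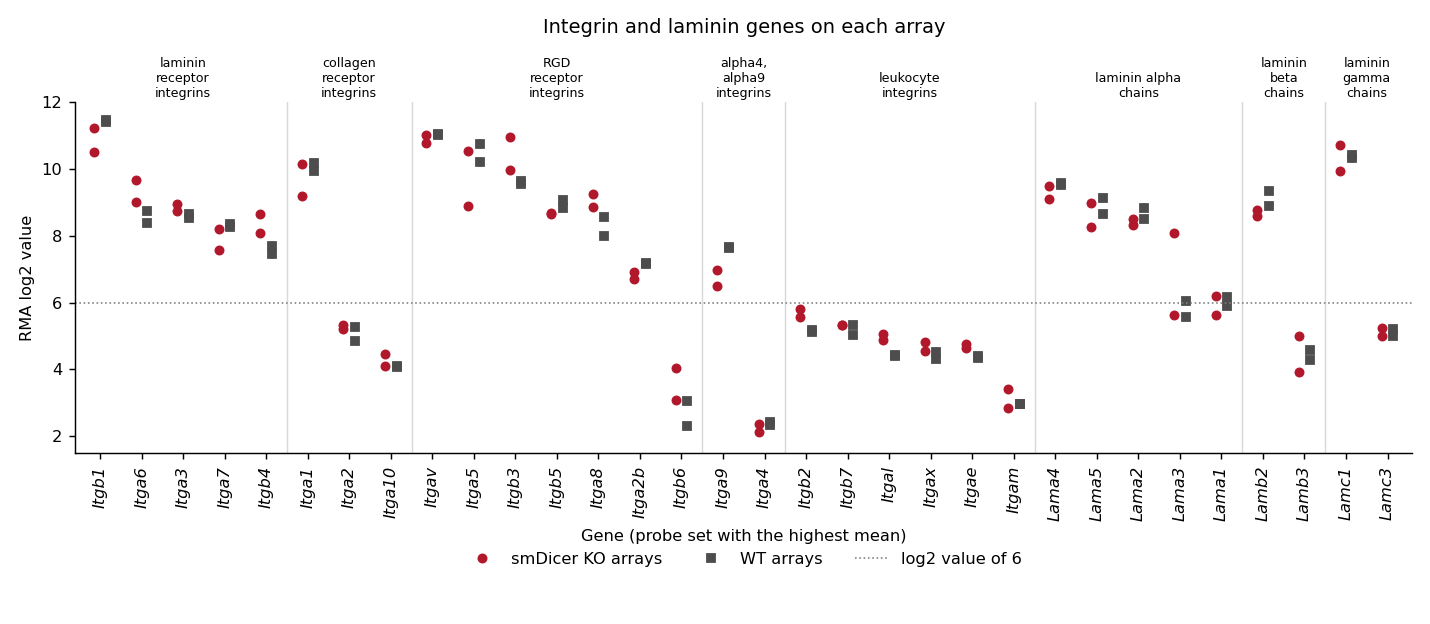
RMA log2 value of 32 genes on each array, with smDicer KO arrays as red circles and WT arrays as grey squares, grouped by the role of the chain; the dotted line marks 6, and heights of different genes are not comparable. The paired points of Itgb1, Itga9 and Itgb4 do not overlap between genotypes, and the points of Lama3 spread most within smDicer KO, at 5.63 and 8.08.

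Over the 33 genes the median log2 fold change, smDicer KO minus WT, was 0.04, against -0.04 over all genes, with 18 genes higher and 15 lower, where 44.4% of all genes were higher. The 21 genes with a mean of at least 6 divided into 7 higher and 14 lower, with a median of -0.24, against -0.06 over all genes at that level, of which 43.3% were higher. The 12 genes under 6 in both genotypes were Itga2, Itga10, Itgb6, Itga4, Itgb2, Itgb7, Itgal, Itgax, Itgae, Itgam, Lamb3 and Lamc3, and 11 of these had a higher mean in smDicer KO. By family, 14 of 23 integrin genes and 4 of 10 laminin genes had a higher mean in smDicer KO, with median log2 fold changes of 0.20 and -0.08. Both smDicer KO arrays lay above both WT arrays for 12 genes and below them for 7, while the arrays of the genotypes overlapped for 14 genes. Over all genes, 21.5% lay above and 30.2% lay below in that way. Of the 21 brighter genes, 6 lay above and 7 below, where all genes at that level gave 25.3% and 36.8%.

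**Figure D2:**
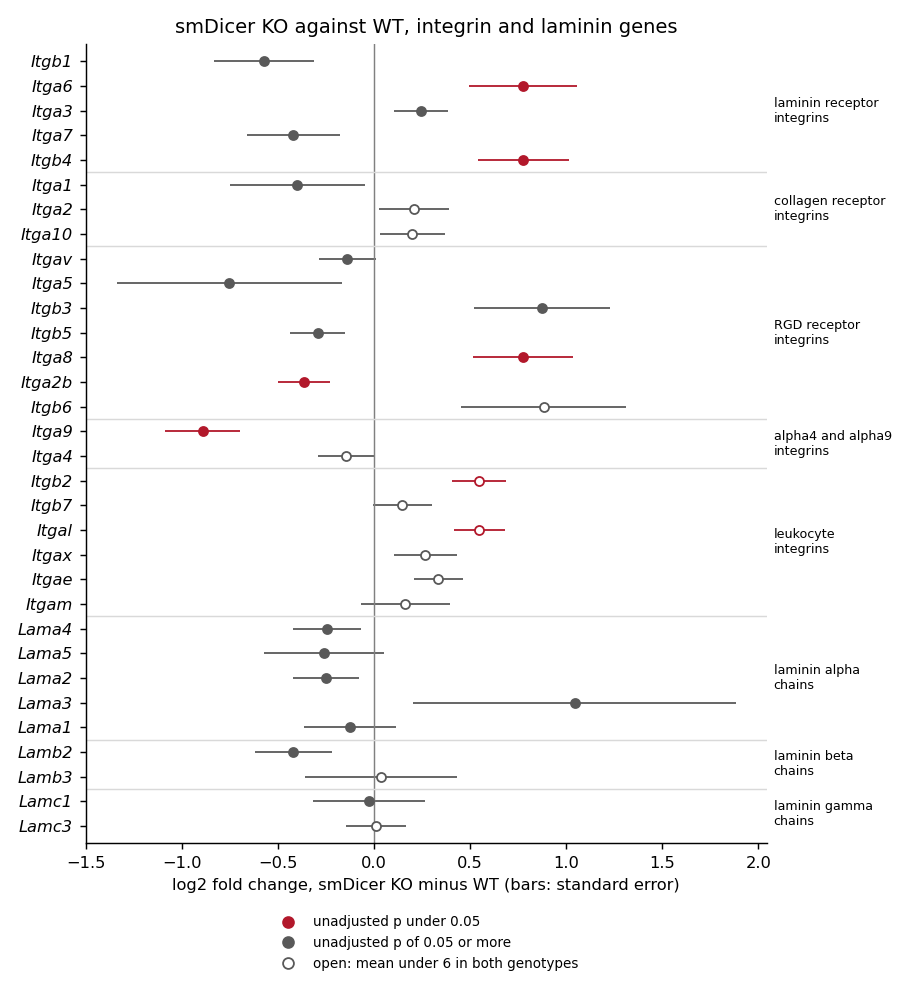
Log2 fold change, smDicer KO minus WT, of 32 genes with its standard error from limma (n = 2 arrays each), in red where the unadjusted p was under 0.05 and with open circles where the mean was under 6 in both genotypes. Lama3 lies farthest above 0 at 1.04, with the widest bar, and Itga9 farthest below at -0.89, and all 6 leukocyte integrin genes lie above 0.

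Promoter sequence from RefSeq on GRCm38.p6, 300 bases with 250 before and 50 after the start, was at hand for 20 of the 33 genes in 23 windows. Itga9, Itga8 and Itga2b are shown because they are the genes with an unadjusted p under 0.05 and a mean of at least 6 that have such a window, and Lama2 is shown for the CArG box in it. Capitals mark a CArG box, the element bound by serum response factor, the transcription factor that drives many smooth muscle genes, or an AP-1 element (TGACTCA or TGAGTCA), both searched on both strands and in no case overlapping. The windows lie at chr9:118711442-118711741 on the plus strand for Itga9, chr2:12301895-12302194 on the minus strand for Itga8, chr11:102469834-102470133 on the minus strand for Itga2b and chr10:27616893-27617192 on the minus strand for Lama2.
Itga9: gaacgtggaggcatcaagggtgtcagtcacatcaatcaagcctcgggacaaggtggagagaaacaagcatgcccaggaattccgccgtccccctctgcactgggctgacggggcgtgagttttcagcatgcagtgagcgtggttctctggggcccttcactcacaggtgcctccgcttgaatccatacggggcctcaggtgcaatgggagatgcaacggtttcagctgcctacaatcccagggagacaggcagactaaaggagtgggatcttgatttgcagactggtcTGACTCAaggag
Itga8: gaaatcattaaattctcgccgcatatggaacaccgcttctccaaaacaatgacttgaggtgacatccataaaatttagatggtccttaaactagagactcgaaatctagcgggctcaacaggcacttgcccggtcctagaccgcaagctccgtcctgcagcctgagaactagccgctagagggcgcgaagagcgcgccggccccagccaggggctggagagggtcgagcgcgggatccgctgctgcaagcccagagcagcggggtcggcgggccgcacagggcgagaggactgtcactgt
Itga2b: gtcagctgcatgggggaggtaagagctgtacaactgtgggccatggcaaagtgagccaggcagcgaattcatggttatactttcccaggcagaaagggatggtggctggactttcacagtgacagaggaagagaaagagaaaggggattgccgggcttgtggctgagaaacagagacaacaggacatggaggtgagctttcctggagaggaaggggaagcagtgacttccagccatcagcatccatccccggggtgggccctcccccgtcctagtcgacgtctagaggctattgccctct
Lama2: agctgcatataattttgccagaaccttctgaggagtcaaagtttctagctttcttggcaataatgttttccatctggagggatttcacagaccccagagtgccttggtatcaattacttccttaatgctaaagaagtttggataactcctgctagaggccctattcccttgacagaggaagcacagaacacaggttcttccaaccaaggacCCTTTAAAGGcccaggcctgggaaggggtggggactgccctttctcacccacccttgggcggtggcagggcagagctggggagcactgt
The AP-1 element of Itga9 begins 39 bases after the start and the CArG box of Lama2 begins 39 bases before it, while the windows of Itga8 and Itga2b hold neither run of letters. A CArG box was found in 2 of the 23 windows (8.7%), where 1.63% of all 32851 windows in the table held one, and an AP-1 element also in 2 (8.7%), where 5.2% of all windows did. The others were a CArG box 50 bases before a second start of Itgb6 (chr2:60673644-60673943, minus strand) and an AP-1 element 56 bases before the start of Itgax (chr7:128129300-128129599, plus strand), shown here with the flanking bases.
Itgb6: cacctgacttCCTTATAAGGtgaatgagga
Itgax: ccacctcctcTGAGTCAcgctgacaac
A match of letters is a description and not a site of binding. Of these 4 genes, Itga9 had an unadjusted p under 0.05.

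Among the laminin receptors, the chains of the epithelial receptor were higher in smDicer KO and the beta1 chain and the muscle alpha7 chain had lower means. Itgb1, the beta1 chain shared by most matrix integrins, measured 11.20 and 10.51 on the smDicer KO arrays, against 11.40 and 11.46 on the WT arrays (log2 fold change -0.57, SE 0.26, limma unadjusted p = 0.085, adjusted p = 0.374). The smDicer KO arrays both lay below the WT arrays, with KO 2 far the lower. Another 5 probe sets of Itgb1 also had lower means in smDicer KO, by log2 fold changes between -0.05 and -0.55. The brighter ones, with means of 11.02 and 8.41, gave -0.55 and -0.53 (limma unadjusted p = 0.058 and 0.042, adjusted p = 0.329 and 0.303). The rest lay near background, with means of 4.22 or less. Itga7, which pairs with beta1 as the laminin receptor of muscle cells and was picked after its values were seen, measured 8.20 and 7.57 on the smDicer KO arrays, against 8.34 and 8.27 on the WT arrays (log2 fold change -0.42, SE 0.24, limma unadjusted p = 0.152, adjusted p = 0.462). As with Itgb1, the value on KO 2 carried most of the difference.

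Itga6 encodes a laminin receptor chain that pairs with beta1 in many cells and with beta4 in the hemidesmosomes of epithelia. It measured 8.99 and 9.67 on the smDicer KO arrays, against 8.74 and 8.38 on the WT arrays (log2 fold change 0.77, SE 0.28, limma unadjusted p = 0.045, adjusted p = 0.309). Itgb4, whose protein pairs only with alpha6, measured 8.07 and 8.64 on the smDicer KO arrays, against 7.70 and 7.46 on the WT arrays (log2 fold change 0.78, SE 0.24, limma unadjusted p = 0.026, adjusted p = 0.268). Both partners were thus higher on each smDicer KO array than on each WT array, and both were highest on KO 2, the array with the highest epithelial markers. Without KO 2 the log2 fold changes were 0.44 for Itga6 and 0.49 for Itgb4 and neither kept an unadjusted p under 0.05, and without WT 1 or WT 2 neither did. A second probe set of Itga6 gave a log2 fold change of 0.60 with overlapping arrays (limma unadjusted p = 0.190, adjusted p = 0.505). Itga3, a laminin receptor chain of epithelia and other cells, measured 8.72 and 8.94 on the smDicer KO arrays, against 8.63 and 8.54 on the WT arrays (log2 fold change 0.24, SE 0.14, limma unadjusted p = 0.151, adjusted p = 0.461) with no overlap of the genotypes. A second probe set of Itga3 measured 7.69 and 7.87 on the smDicer KO arrays, against 7.74 and 7.66 on the WT arrays, which overlapped (log2 fold change 0.08), the remaining one gave -0.13, and the mean over all of them was 0.067. The part of the 27 epithelial markers in these values was not tested.

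Lama3 and Lamb3 encode the alpha3 and beta3 chains of the laminin beneath epithelia that the alpha6 beta4 integrin binds at hemidesmosomes, and neither differed between genotypes by more than the gap between the smDicer KO arrays. Lama3 measured 5.63 and 8.08 on the smDicer KO arrays, against 5.57 and 6.05 on the WT arrays (log2 fold change 1.04, SE 0.84, limma unadjusted p = 0.275, adjusted p = 0.590). Only KO 2 was high, KO 1 lay within the WT values, and the log2 fold change was -0.18 without KO 2 and 2.27 without KO 1. Lamb3 lay near background at 3.92 and 5.0 on the smDicer KO arrays, against 4.27 and 4.57 on the WT arrays (log2 fold change 0.04, SE 0.39, limma unadjusted p = 0.931, adjusted p = 0.979). Both chains were thus higher on KO 2 than on KO 1, by more than they differed between the WT arrays.

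**Figure D3:**
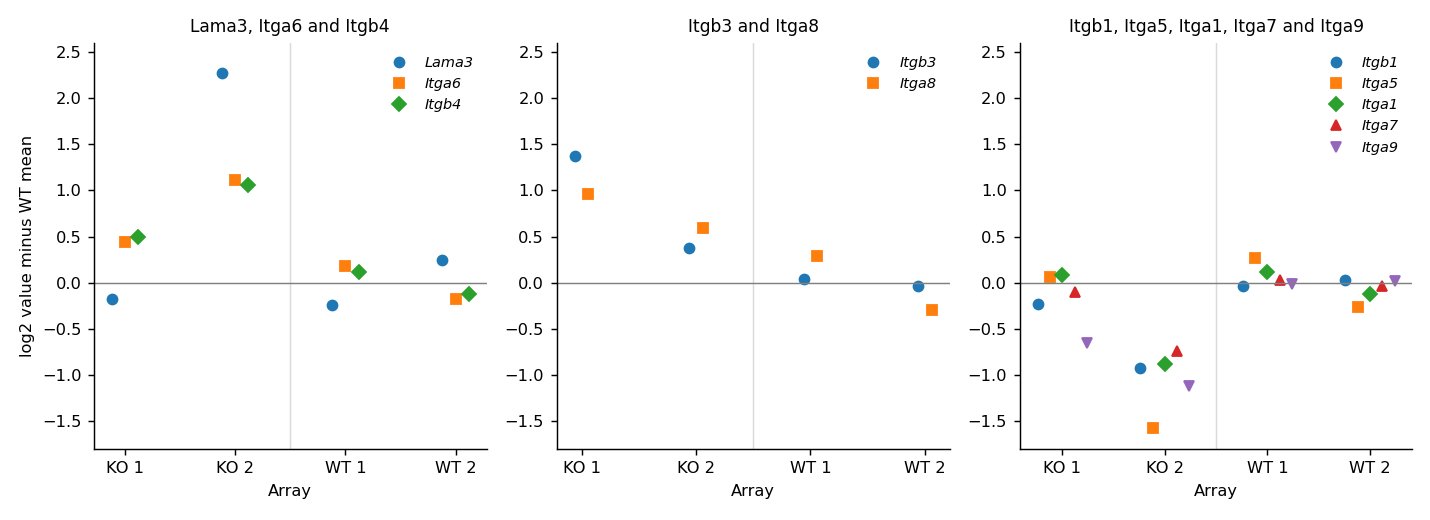
Log2 value of each array minus the WT mean of the gene, for Lama3, Itga6 and Itgb4 (left), Itgb3 and Itga8 (middle) and Itgb1, Itga5, Itga1, Itga7 and Itga9 (right), with the smDicer KO arrays left of the WT arrays in each panel. Genes of the left panel are highest on KO 2, genes of the middle panel are highest on KO 1, and genes of the right panel are lowest on KO 2; the panels were put together after the values were seen.

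None of the laminin chains of muscle, vessel and general basement membranes had an unadjusted p under 0.05 in limma with all 4 arrays. Lama4, an alpha chain of vessels and muscle, measured 9.49 and 9.11 on the smDicer KO arrays, against 9.52 and 9.57 on the WT arrays (log2 fold change -0.24, SE 0.17, limma unadjusted p = 0.227, adjusted p = 0.543). Lama2, the alpha chain of muscle and peripheral nerve, whose promoter is printed above, measured 8.32 and 8.50 on the smDicer KO arrays, against 8.50 and 8.83 on the WT arrays (log2 fold change -0.25, SE 0.17, limma unadjusted p = 0.209, adjusted p = 0.526). Lama5, the alpha chain found most widely in the adult, measured 8.97 and 8.25 on the smDicer KO arrays, against 8.63 and 9.11 on the WT arrays (log2 fold change -0.26, SE 0.31, limma unadjusted p = 0.444, adjusted p = 0.729). The smDicer KO and WT arrays overlapped for Lama2 and Lama5, and lay apart for Lama4 by less than the gap between the smDicer KO arrays. Lama4 had a log2 fold change of -0.44, with an unadjusted p under 0.05, without KO 1 and -0.05 without KO 2. Without KO 2 the fold change of Lama5 turned to 0.10. Lama1, an alpha chain best known from the embryo and chosen after its values were seen, had overlapping arrays and a log2 fold change of -0.12 (SE 0.24).

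Lamb2, the beta chain of many muscle and nerve basement membranes, measured 8.78 and 8.59 on the smDicer KO arrays, against 8.88 and 9.33 on the WT arrays (log2 fold change -0.42, SE 0.20, limma unadjusted p = 0.098, adjusted p = 0.393). Lamc1, the gamma chain of most laminins, measured 10.72 and 9.93 on the smDicer KO arrays, against 10.40 and 10.31 on the WT arrays (log2 fold change -0.03, SE 0.29, limma unadjusted p = 0.926, adjusted p = 0.978). Lamb1-1, the beta1 partner of Lamc1, measured 10.92 and 9.999 on the smDicer KO arrays, against 10.30 and 10.22 on the WT arrays (log2 fold change 0.20, SE 0.33, limma unadjusted p = 0.566, adjusted p = 0.809). Lamb2 was lower on both smDicer KO arrays, narrowly so between KO 1 and WT 1, with a log2 fold change of -0.65 and an unadjusted p under 0.05 without WT 1 and -0.19 without WT 2, whereas Lamc1 and Lamb1-1 were both above the WT values on KO 1 and below them on KO 2. Lamc3 lay near background with a log2 fold change of 0.01 (SE 0.15).

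Of the collagen receptor chains analysed, Itga1 alone lay above background. Itga1, which pairs with beta1 and binds basement membrane collagen in smooth muscle, measured 10.13 and 9.17 on the smDicer KO arrays, against 10.17 and 9.93 on the WT arrays (log2 fold change -0.40, SE 0.35, limma unadjusted p = 0.312, adjusted p = 0.623). KO 1 lay between the WT values and KO 2 below them, and without KO 2 the log2 fold change was 0.08. A second probe set of Itga1 measured 7.98 and 6.57 on the smDicer KO arrays, against 8.02 and 8.62 on the WT arrays (log2 fold change -1.04, SE 0.52, limma unadjusted p = 0.110, adjusted p = 0.409), again with KO 2 the lowest. Itga2 and Itga10, the other collagen receptor chains analysed, lay near background, with log2 fold changes of 0.21 (SE 0.18) and 0.20 (SE 0.17).

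Of the receptors for the RGD motif of fibronectin, vitronectin and related ligands, Itga8 and Itgb3 had higher means and Itga5, Itgb5 and Itga2b lower means in smDicer KO. Itga8, which pairs with beta1, binds nephronectin and fibronectin and is found in smooth muscle and other mesenchymal cells, measured 9.23 and 8.86 on the smDicer KO arrays, against 8.56 and 7.97 on the WT arrays (log2 fold change 0.78, SE 0.26, limma unadjusted p = 0.035, adjusted p = 0.289). Both smDicer KO arrays lay above both WT arrays, and a second, dim probe set of Itga8 did the same (log2 fold change 0.36, SE 0.12, limma unadjusted p = 0.036, adjusted p = 0.289). Without WT 2, KO 1 or KO 2 the unadjusted p of the main probe set was no longer under 0.05, with log2 fold changes of 0.48, 0.59 and 0.96. Itgb3, which pairs with alphav or alphaIIb, measured 10.96 and 9.96 on the smDicer KO arrays, against 9.62 and 9.55 on the WT arrays (log2 fold change 0.87, SE 0.35, limma unadjusted p = 0.062, adjusted p = 0.334). The gap to WT was wide on KO 1 and narrow on KO 2, and the log2 fold change was 1.37, with an unadjusted p under 0.05, without KO 2 and 0.38 without KO 1, with an unadjusted p above it. A second, dim probe set of Itgb3 gave 0.12 (SE 0.15).

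Itgav, the alphav chain that pairs with beta1, beta3, beta5 and others, measured 11.02 and 10.75 on the smDicer KO arrays, against 10.9997 and 11.05 on the WT arrays (log2 fold change -0.14, SE 0.15, limma unadjusted p = 0.391, adjusted p = 0.691). Thus Itgav and its partner Itgb3 did not move together, and KO 1 lay within the WT values for Itgav. Itga5, the fibronectin receptor chain that pairs with beta1, measured 10.53 and 8.90 on the smDicer KO arrays, against 10.73 and 10.20 on the WT arrays (log2 fold change -0.75, SE 0.59, limma unadjusted p = 0.260, adjusted p = 0.576). Only KO 2 was low, and the log2 fold change was 0.06 without KO 2 and -1.57 without KO 1. Itgb5, a vitronectin receptor chain chosen after its values were seen, measured 8.65 and 8.67 on the smDicer KO arrays, against 8.83 and 9.07 on the WT arrays (log2 fold change -0.29, SE 0.14, limma unadjusted p = 0.103, adjusted p = 0.400). All 4 probe sets of Itgb5 had lower means in smDicer KO, 1 of them at an unadjusted p under 0.05 (log2 fold change -0.46, SE 0.15, limma unadjusted p = 0.031, adjusted p = 0.278).

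Itga2b, the platelet chain that pairs with beta3, measured 6.91 and 6.71 on the smDicer KO arrays, against 7.19 and 7.17 on the WT arrays (log2 fold change -0.37, SE 0.14, limma unadjusted p = 0.049, adjusted p = 0.315). Both smDicer KO arrays lay below both WT arrays, but the unadjusted p was 0.05 or more without WT 1, WT 2 or KO 2, with log2 fold changes of -0.35, -0.38 and -0.26. It was also above 0.05 without moderation of the variance, with trend and robust, after cyclic loess, with the filter on low values and with the replicate block. Of 9 platelet markers, 5 had lower means in smDicer KO, 2 of them at an unadjusted p under 0.05 (22.2%, against 10.5% of all genes), among them Pf4, a platelet chemokine, with 7.52 and 7.81 on the smDicer KO arrays, against 8.78 and 8.27 on the WT arrays (log2 fold change -0.86, SE 0.23, limma unadjusted p = 0.016, adjusted p = 0.250). The medians of the 9 were 4.87 and 4.81 on the smDicer KO arrays, against 5.13 and 4.501 on the WT arrays, and their part in the value of Itga2b was not tested. Itgb6, the beta6 chain of epithelia, lay near background at 3.08 and 4.05 on the smDicer KO arrays, against 2.30 and 3.07 on the WT arrays (chosen after its values were seen), and the margin between KO 1 and WT 2 was below 0.01.

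Itga9 had the smallest unadjusted p of the 33 genes. Its chain pairs with beta1, binds tenascin-C and VCAM1 and is expressed in smooth muscle among other tissues. Itga9, whose promoter with the AP-1 element is printed above, measured 6.97 and 6.51 on the smDicer KO arrays, against 7.62 and 7.65 on the WT arrays (log2 fold change -0.89, SE 0.20, or 0.539 times the WT level, limma unadjusted p = 0.008, adjusted p = 0.234). Both smDicer KO arrays lay clearly below both WT arrays, and KO 1 was lower as well as KO 2. A second probe set of Itga9 measured 5.89 and 5.39 on the smDicer KO arrays, against 6.46 and 6.31 on the WT arrays (log2 fold change -0.75, SE 0.21, limma unadjusted p = 0.019, adjusted p = 0.255), again with both smDicer KO arrays below both WT arrays, and the remaining, dim probe set gave -0.14 (SE 0.13). The unadjusted p of the main probe set stayed under 0.05 without KO 1 or KO 2 and was 0.05 or more without WT 1 or WT 2, where the log2 fold changes were -0.91 and -0.88. Itga4, the other chain of this subfamily, which binds fibronectin and VCAM1 on leukocytes, has 1 probe set of its own, at 2.13 and 2.36 on the smDicer KO arrays, against 2.44 and 2.35 on the WT arrays (log2 fold change -0.15, SE 0.14). A brighter probe set that the annotation assigns to both Itga4 and Cerkl, and which is therefore not counted above, measured 6.97 and 6.56 on the smDicer KO arrays, against 7.16 and 7.83 on the WT arrays (log2 fold change -0.73, SE 0.29, limma unadjusted p = 0.058, adjusted p = 0.328).

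The integrins of leukocytes all lay below 6 in both genotypes, and all 6 had a higher mean in smDicer KO. Itgb2, the beta2 chain shared by the leukocyte integrins, measured 5.57 and 5.80 on the smDicer KO arrays, against 5.11 and 5.17 on the WT arrays (log2 fold change 0.54, SE 0.14, limma unadjusted p = 0.015, adjusted p = 0.247). Itgal, the alphaL chain that joins beta2 in the receptor for ICAM1, measured 5.06 and 4.88 on the smDicer KO arrays, against 4.42 and 4.42 on the WT arrays (log2 fold change 0.55, SE 0.13, limma unadjusted p = 0.011, adjusted p = 0.241). Both smDicer KO arrays lay above both WT arrays for this receptor's alpha and beta chains, although no array reached 6, a second probe set of Itgal gave -0.07, and neither p stayed under 0.05 without WT 1 or WT 2. Itgb7, whose chain pairs with alpha4 or alphaE on gut lymphocytes, measured 5.32 and 5.33 on the smDicer KO arrays, against 5.03 and 5.33 on the WT arrays (log2 fold change 0.15, SE 0.15). The other chains, Itgae, Itgax and Itgam, chosen here after their values were seen, had log2 fold changes of 0.34, 0.27 and 0.16. Of 19 leukocyte markers, 16 had higher means in smDicer KO (84.2%, against 44.4% of all genes) and 8 passed an unadjusted p of 0.05 (42.1%, against 7.2% of all genes higher at that p), with medians of 6.45 and 6.25 on the smDicer KO arrays, against 5.92 and 5.86 on the WT arrays. Ptprc, the leukocyte common antigen CD45, measured 7.42 and 7.36 on the smDicer KO arrays, against 6.004 and 5.86 on the WT arrays (log2 fold change 1.46, SE 0.13). The part of the leukocyte markers in these values was not tested.

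The gap between the smDicer KO arrays limited the reading of many of the genes, as it did across the array. Over the 21 genes with a mean of at least 6, the smDicer KO arrays differed from each other by a median of 0.58 on the log2 scale and the WT arrays by 0.24, where all genes at that level gave 0.263 and 0.131. For 11 of the 21 (52.4%) the smDicer KO arrays differed by more than the absolute log2 fold change between the genotypes, and 47.0% of all genes at that level did so. A difference of at least 0.5 between the smDicer KO arrays, which was not counted over all genes, was present in 12 of the 21 genes. Of these, 9 were higher on KO 1, among them Itgb1, Itga7, Itga1, Itga5, Itgb3, Lama5, Lama1 and Lamc1, and 3, Lama3, Itga6 and Itgb4, were higher on KO 2. The widest gap was that of Lama3 in smDicer KO, at 2.45, and the widest among the WT arrays was that of Itga8, at 0.59.

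Among the 33 genes, several probe sets of a gene gave 1 direction where they were bright. Of the 33 genes, 19 had more than 1 probe set, up to 6 for Itgb1, and 7 of these had at least 2 probe sets with a mean of at least 6 in the higher genotype (17 probe sets). In all 7 genes these brighter probe sets had the same sign. Outside the 33 genes, the probe sets of Lamb1-1 with means of 10.36, 8.16 and 7.22 differed in sign (0.20, 0.13 and -0.08). Dim probe sets often did not follow the bright one of the gene, as in Itga5, where 2 dim probe sets gave 0.69 and 0.47. For Itgav and Lama3, 1 dim probe set each (log2 fold changes 0.03 and -0.08) is annotated on the strand opposite to the gene.

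**Figure D4:**
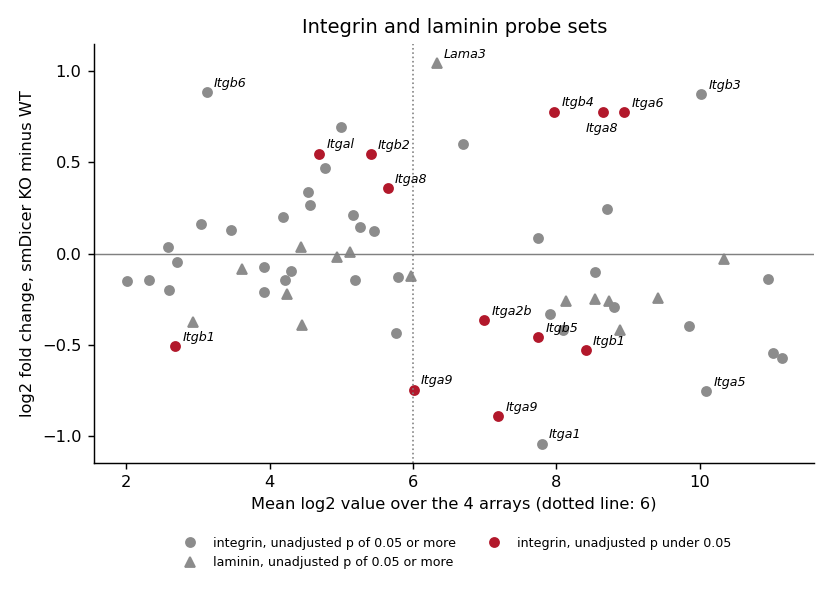
Log2 fold change, smDicer KO minus WT, of 64 probe sets against their mean log2 value over the 4 arrays, with integrins as circles and laminins as triangles and an unadjusted p under 0.05 in red; the dotted line marks 6. Of the probe sets right of the line most lie below 0, with Itga1 at -1.04 and Itga9 at -0.89 the lowest, while Lama3, Itgb3, Itgb4, Itga8 and Itga6 lie above 0.

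Of 40 activators and adaptors that work with integrins inside the cell, 24 had lower and 16 higher means in smDicer KO (40% higher, against 44.4% of all genes and 43.3% of those with a mean of at least 6), with a median log2 fold change of -0.18. At an unadjusted p under 0.05 there were 8 lower and 4 higher, or 30%, against 17.7% of all genes and 26.6% at that level. Tns1, which encodes tensin, an actin-binding adaptor of focal adhesions, measured 10.72 and 10.17 on the smDicer KO arrays, against 11.57 and 11.67 on the WT arrays (log2 fold change -1.18, SE 0.22, limma unadjusted p = 0.004, adjusted p = 0.229). Lims2, which encodes an adaptor that binds integrin-linked kinase, measured 10.36 and 9.44 on the smDicer KO arrays, against 11.19 and 11.22 on the WT arrays (log2 fold change -1.31, SE 0.33, limma unadjusted p = 0.013, adjusted p = 0.243). Itgb1bp1, whose protein binds the tail of the beta1 chain and limits its activation, measured 8.09 and 7.65 on the smDicer KO arrays, against 9.15 and 8.62 on the WT arrays (log2 fold change -1.01, SE 0.26, limma unadjusted p = 0.014, adjusted p = 0.244). For these 3 genes both smDicer KO arrays lay below both WT arrays, as they did for 19 of the 40, where 30.2% of all genes and 36.8% of those with a mean of at least 6 lay below in that way. Of the 12 smooth muscle markers, 11 had a lower mean in smDicer KO over the same arrays, and their part in this count was not tested.

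Of 29 basement membrane genes outside the 33, with Lamb1-1 counted among them, 20 had lower and 9 higher means in smDicer KO, with a median of -0.16. Higher means made up 31.0%, against 44.4% of all genes and 43.3% of those with a mean of at least 6. At an unadjusted p under 0.05 there were 4 lower and 2 higher. The 6 are 20.7% of the list, against 17.7% of all genes and 26.6% of those with a mean of at least 6. Agrn, which encodes the heparan sulfate proteoglycan agrin that binds laminin, measured 9.69 and 9.33 on the smDicer KO arrays, against 8.50 and 8.75 on the WT arrays (log2 fold change 0.88, SE 0.19, limma unadjusted p = 0.007, adjusted p = 0.234). Sdc2, a cell surface proteoglycan, was lower (log2 fold change -0.79, SE 0.16, limma unadjusted p = 0.006, adjusted p = 0.232), as was Col15a1, a collagen of basement membrane zones (-0.70, SE 0.16, limma unadjusted p = 0.009, adjusted p = 0.234). The genotypes did not overlap for any of these 3 genes.

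The 32 matrix ligands of integrins had a median of -0.04, with 3 higher and 3 lower at an unadjusted p under 0.05 (18.8%, against 17.7% of all genes and 26.6% of those with a mean of at least 6). Fbn2, which encodes the microfibril protein fibrillin-2, measured 10.09 and 10.01 on the smDicer KO arrays, against 8.81 and 8.75 on the WT arrays (log2 fold change 1.27, SE 0.12, limma unadjusted p = 2.7e-04, adjusted p = 0.215). Fbln5, an RGD protein of elastic fibres, measured 9.23 and 9.16 on the smDicer KO arrays, against 8.22 and 7.73 on the WT arrays (log2 fold change 1.22, SE 0.20, limma unadjusted p = 0.003, adjusted p = 0.223). Ctgf, a matricellular protein, had a log2 fold change of 0.998 (SE 0.18, limma unadjusted p = 0.004, adjusted p = 0.229). In all 3 genes the smDicer KO arrays were close together and lay above both WT arrays. The 3 lower ones, chosen after their values were seen, were Spp1, Postn and Vtn. Spp1, which encodes osteopontin, an RGD protein also bound by alpha9, lay below 6 on every array, at 2.88 and 3.09 on the smDicer KO arrays, against 4.95 and 4.18 on the WT arrays (log2 fold change -1.58, SE 0.29, limma unadjusted p = 0.004, adjusted p = 0.229). Postn, the matricellular protein periostin, measured 12.46 and 11.91 on the smDicer KO arrays, against 12.82 and 12.75 on the WT arrays (log2 fold change -0.60, SE 0.22, limma unadjusted p = 0.043, adjusted p = 0.306). Vtn, which encodes vitronectin, averaged below 6 in both genotypes (means of 5.53 in smDicer KO and 5.95 in WT). It differed less (log2 fold change -0.41, SE 0.13, limma unadjusted p = 0.029, adjusted p = 0.275).

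Of 17 cell surface and plasma ligands of integrins, 10 had higher means in smDicer KO, with 5 higher and 1 lower at an unadjusted p under 0.05 and a median of 0.05. Higher means thus made up 58.8%, against 44.4% of all genes, and the 6 genes 35.3%, against 17.7% of all genes. Vcam1, the ligand of alpha4 and alpha9 integrins on activated endothelium, measured 8.28 and 7.69 on the smDicer KO arrays, against 6.74 and 6.57 on the WT arrays (log2 fold change 1.33, SE 0.24, limma unadjusted p = 0.003, adjusted p = 0.226). Cdh1, the epithelial cadherin bound by the alphaE beta7 integrin and itself 1 of the epithelial markers, measured 7.74 and 10.45 on the smDicer KO arrays, against 4.71 and 5.16 on the WT arrays (log2 fold change 4.16, SE 0.92, limma unadjusted p = 0.008, adjusted p = 0.234), so the gap within smDicer KO was wide as well. L1cam, a neural adhesion molecule with an RGD motif, had a log2 fold change of 0.89 (SE 0.15, limma unadjusted p = 0.003, adjusted p = 0.223). All 14 enteric neuron markers had higher means in smDicer KO too, where 44.4% of all genes did. Their medians were 10.28 and 9.49 on the smDicer KO arrays, against 9.28 and 8.97 on the WT arrays, and their part in the value of L1cam was not tested.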

How the data were processed

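RNA of the jejunal muscularis of 2 smDicer KO and 2 WT mice was hybridized to Affymetrix Mouse Genome arrays, 1 array per mouse. The authors normalized the arrays with RMA in Omicsoft Array Studio (version not given in the sources used here) and deposited the resulting log2 values of 45101 probe sets, 64 of them controls. Columns with the authors' own comparison (fold changes and p-values) were also deposited and were not used. Gene symbols were those of the deposited annotation, which left out 2005 probe sets with several symbols and 6228 with none.

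The log2 values were tested as deposited, smDicer KO minus WT, with limma 3.58.1 (lmFit and eBayes with default settings) in R 4.3.3 over all probe sets, with Benjamini-Hochberg adjustment. Python 3.11.15 with pandas 2.3.3, numpy 2.4.6 and matplotlib 3.10.9 gave the tables and figures. For each gene the probe set brightest on average was used. The script was tested on simulated data with known changes. Precision is limited by the number of arrays. An exact two-sided permutation test of 2 against 2 cannot go below 0.333.

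The gene set, the lists of partner genes and the marker lists were chosen with earlier results of these data known. Genes given in full had an unadjusted p under 0.05 or an absolute log2 fold change of at least 1 with a mean of at least 6 in the higher genotype, or were among the 3 genes of their role group with the highest mean. Results of a withheld gene are counted in the totals and are otherwise not reported here. Of each partner list up to 3 genes were named, those with the largest change among genes that averaged at least 6 in the higher genotype and had an unadjusted p under 0.05. A gene outside this rule is marked in the text as picked after its values were seen. Alternatives were other treatments of the variance (none, or trend and robust), a filter on low values, other scalings (array medians, cyclic loess), a block for the replicate number, the loss of any 1 array, and other probe sets of a gene or their mean. Replicate numbers 1 and 2 are shared by both genotypes in the labels, which name nothing that they mark, so arrays were not paired. Nothing in the labels names a hybridization batch. Promoter windows came from RefSeq (GRCm38.p6).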

Additional observations from a re-analysis of the deposited data

How the results depend on the processing

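No setting called an integrin or laminin probe set at an adjusted p under 0.05. The 13 probe sets at an unadjusted p under 0.05 (7 higher, 6 lower) became 4 (4 higher, 0 lower) without moderation, 8 (4 higher, 4 lower) of the 31 left by a filter of at least 6 on 2 or more arrays, 14 (6 higher, 8 lower) after centring on array medians, 12 (9 higher, 3 lower) after cyclic loess, 13 with trend and robust, and 10 (7 higher, 3 lower) with the replicate block. Leaving out 1 array gave 1 to 26: 1 without WT 2 (0 higher, 1 lower), 3 without WT 1 (1 higher, 2 lower), 8 without KO 2 (5 higher, 3 lower) and 26 without KO 1 (11 higher, 15 lower). Over all probe sets, 7126 became 4535 without moderation and 2655 and 2249 without WT 1 and WT 2, and without KO 1 378 passed the adjusted p, none of them an integrin or laminin. Same-numbered arrays share only a number, and their deviations from the group means correlated at 0.25. With 2 arrays per genotype both pairs must give the same value, so this is 1 value.

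The median over the genes, 0.04, was -0.0066 after centring, 0.10 after cyclic loess, -0.24 over the 21 genes left by the filter, and -0.0016 to 0.15 with 1 array left out. It was 0.04 in the other settings. Of the 25 genes named by rule, the sign turned after centring for Lamb3 (-0.0066) and Lamc3 (-0.033), and after cyclic loess for Lamc1 (0.10). With 1 array left out, it turned for Itga5 (-1.57 to 0.064), Itga1 (-0.88 to 0.081), Lama5 (-0.62 to 0.10), Lama3 (-0.18 to 2.27) and Lamb3 (-0.51 to 0.58), each without KO 2 and for Lamb3 also without WT 1. It also turned for Lamc1 (-0.43 to 0.37, without KO 2 or WT 1), Lamc3 (-0.10 to 0.12, without KO 1 or WT 1) and Itgb7 (-0.0016 to 0.30, without WT 1). The mean over probe sets turned it for Lamc3 (-0.0057), and other probe sets for Itgav (0.034), Itga5 (0.69 and 0.47), Lama3 (-0.082), Lamc3 (-0.021), Itga3 (-0.13) and Itgal (-0.072). The cause was not tested. In the unmoderated model 5 of the 7 named genes with an unadjusted p under 0.05 lost it, without WT 1 6 did and without WT 2 all 7 did.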
